A study of Homo sapiens with 20 samples.

Results

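The WNT feedback genes described here are AXIN2, LEF1, TCF7, TCF7L2, NKD1, RNF43, ZNRF3, LGR4, CTNNB1 and APCDD1, a list of 10 genes chosen by symbol among the 57773 gene rows of each deposited count table. They were followed through 10 conditions of LNCaP, a human prostate adenocarcinoma cell line. RNA-seq of total RNA gave 20 samples. In the knockdown experiment, LNCaP cells were transfected for 2 days with 20 nM of an siRNA pool against EHMT1, a histone lysine methyltransferase also called GLP (siEHMT1, 2 samples), or with 20 nM of a nontarget pool (siNTC, 2 samples). In the overexpression experiment, LNCaP-tet-EHMT1 cells carried a lentiviral, doxycycline-inducible EHMT1 transgene selected with puromycin. The transgene was wild type (WT), K450R, K451R or K450RK451R, in which arginine replaces 1 or both of these lysines. Each of the 4 lines was left without doxycycline (Veh) or given 0.25 µg/mL doxycycline for 2 days (Dox), with 2 columns per condition. All 4 lines kept their own EHMT1 gene, so the mutants were expressed beside the endogenous protein.

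In canonical WNT signaling, a WNT ligand binds Frizzled and LRP receptors and stops a cytoplasmic destruction complex from degrading beta-catenin, the product of CTNNB1. Beta-catenin then enters the nucleus and binds TCF7L2, LEF1 or TCF7, which hold target genes at TCF/LEF sites. Several targets act back on the pathway. AXIN2 is a scaffold of the destruction complex, NKD1 antagonizes Dishevelled, APCDD1 is a membrane inhibitor of ligand and receptor, RNF43 and ZNRF3 are ubiquitin ligases that remove Frizzled from the membrane, and LGR4 is an R-spondin receptor that restrains those ligases. AXIN2 in particular is widely used as a readout of beta-catenin activity. Prostate cancers seldom mutate CTNNB1.

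TCF/LEF factors bind DNA at a short motif. The 1000 bases on each side of each gene's start were therefore searched on both strands for CTTTGAT and CTTTGAA. The start was that of the Ensembl canonical transcript on GRCh37 (GENCODE release 44). The search found 6 of the 10 genes with at least 1 match (60.0%), against 7444 of 19814 protein-coding genes with a window of the same length (37.6%). The windows of CTNNB1, LEF1, LGR4 and RNF43 held neither spelling. AXIN2 held 6 matches, APCDD1, NKD1, TCF7 and TCF7L2 held 2 each, and ZNRF3 held 1. The match nearest to the start is shown for each of the 6 genes, 5′ to 3′ on the gene's own strand, with the motif in capitals and 10 reference bases on each side.
AXIN2: gccggctgcgCTTTGATaaggtcctgg
TCF7: ccggcggcgcCTTTGATgttccgaccc
TCF7L2: tcagcgccgcCTTTGAActgaaaagct
NKD1: ccagccttgcCTTTGATgcgccgcacc
APCDD1: cccgcaccccCTTTGAAcacctttccc
ZNRF3: tgaatgccaaCTTTGAAaagacaagtg
The AXIN2 match (chr17:63557676-63557702, minus strand) began its motif 74 bases after the start, in an exon at the 5′ UTR. The TCF7 match (chr5:133450378-133450404, plus strand) lay 16 bases and the TCF7L2 match (chr10:114710074-114710100, plus strand) 78 bases after the start, both also at the 5′ UTR of an exon. The NKD1 match (chr16:50582213-50582239, plus strand) lay 84 bases and the APCDD1 match (chr18:10454153-10454179, plus strand) 469 bases before the start. The ZNRF3 match (chr22:29280386-29280412, plus strand) lay 836 bases after it, in an intron. A match describes the letters in the window and was not tested as a binding site.

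The columns of each stable-line condition differed by no more than counting noise and were summed, so each of those 8 conditions is 1 sample and the 4 lines serve as replicates of Dox against Veh. Total counts ran from 5593400 to 12438006 in the siRNA samples and from 8436791 to 12407739 in the summed conditions. EHMT1 itself was at 83.4 and 87.5 CPM (counts scaled to library size) in siNTC and at 29.2 and 30.7 CPM in siEHMT1 (log2 fold change -1.52, SE 0.11, edgeR adjusted p 2.3e-07). It was at 71.5 to 88.6 CPM in Veh and at 661 to 840 CPM with Dox, a count that includes the transgene. LNCaP markers were all detected (8 of 8), and KRT5, TP63, PTPRC, PECAM1 and CDH5, which mark basal, immune and endothelial cells, were at 0 in every library. Other markers on those lists were not at 0. VWF, an endothelial marker, was at 9.24 and 7.69 CPM in siNTC, 15.9 and 15.6 CPM in siEHMT1 and 3.34 to 7.24 CPM in the stable lines (knockdown log2 fold change 0.87, edgeR adjusted p 0.0858). COL1A1, a fibroblast collagen gene, was at 15.3 to 40.7 CPM, KRT14 at 2 to 18 counts and CD68 at 0 to 6 counts. Their part in the results was not tested. In siNTC replicate 2, 2 pseudogenes that resemble ribosomal RNA took 10.0% of the counts, against 0.82% in siNTC replicate 1. Fewer cells of a type and less RNA per cell cannot be told apart in such bulk samples.

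CTNNB1 had the highest level of the 10 mRNAs and TCF7 the lowest. Per kilobase of the canonical transcript, the mean level over the 4 Veh libraries was 78.6 CPM for CTNNB1, 4.89 for RNF43, 1.68 for ZNRF3, 1.54 for LGR4, 1.09 for TCF7L2 and 0.866 for AXIN2. NKD1 followed at 0.309, LEF1 at 0.264, APCDD1 at 0.252 and TCF7 at 0.122 CPM per kilobase. The place of NKD1 depends on its annotated canonical length of 17039 bases. Without division by length, the Veh mean of NKD1 was 5.27 CPM, above TCF7L2 (4.44) and AXIN2 (3.69). Per kilobase of all annotated exons the order was the same except that AXIN2 (0.709) lay above TCF7L2 (0.659), and CTNNB1 stood at 24.5. A gene was called detectable in a condition when it had more than 3 counts in each library of that condition, a floor of 0.232 to 0.591 CPM per library that covers counting error only.

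All 10 genes were detectable in siNTC, WT Veh and both K450RK451R conditions. Of the 10, 9 were detectable in siEHMT1, K450R Veh and both K451R conditions, and 8 in WT Dox and K450R Dox. The genes that dropped out were TCF7 throughout (3 and 3 counts in siEHMT1), LEF1 in WT Dox and APCDD1 in K450R Dox. Only CTNNB1 and RNF43 had at least 100 counts in all 10 conditions, so these are the members measured most precisely. When the 10 conditions were ordered by level, with the siRNA samples of a group pooled, no neighbouring pair differed beyond its counting intervals for 7 members. ZNRF3, LGR4 and CTNNB1 each had 1 gap, between both siRNA conditions and the 8 stable-line conditions below them. Neighbours in a sorted order are close by construction, and conditions farther apart in it could still differ. For RNF43 the counting interval was 24.1 to 30.9 CPM in K450R Dox and 16.6 to 22.5 CPM in WT Dox.

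**Figure D1:**
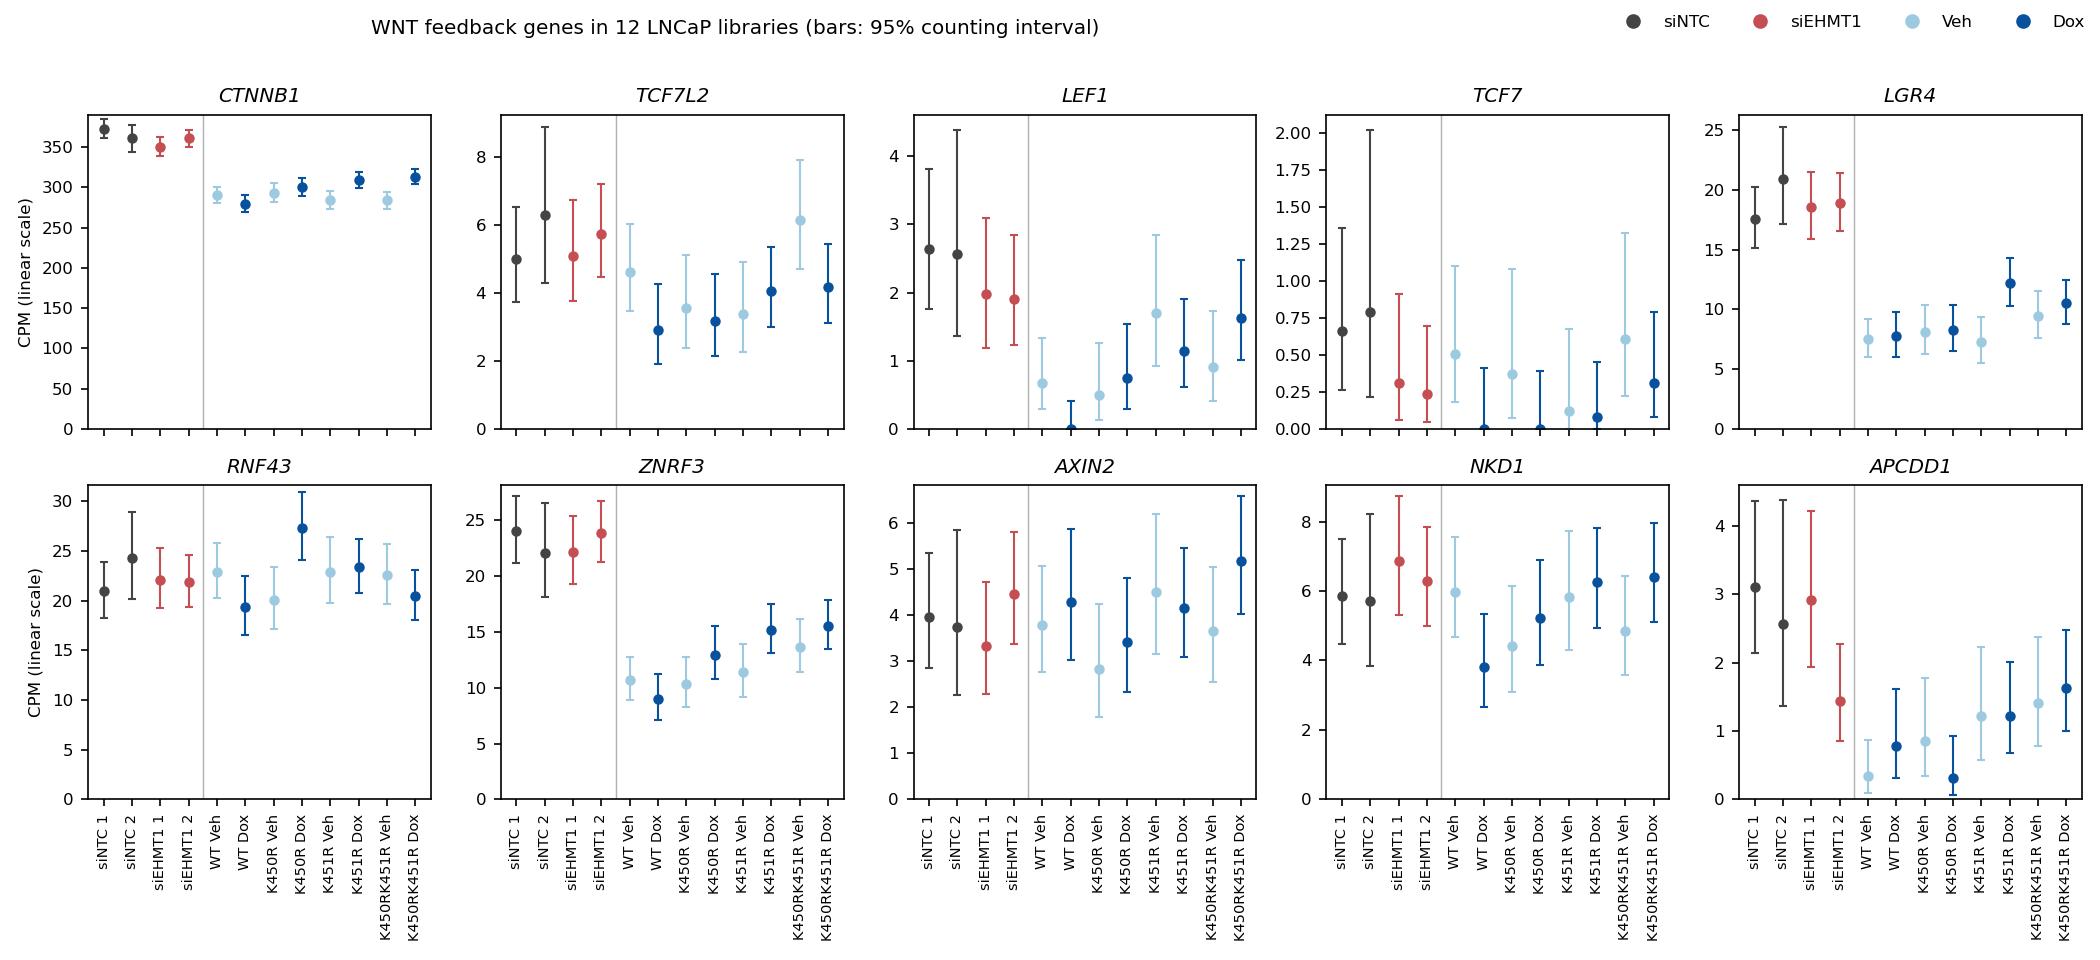
CPM of the 10 WNT feedback genes (linear axis, starting at 0) in the 4 siRNA samples and the 8 summed stable-line conditions. Points are libraries and bars are 95% counting intervals. ZNRF3, LGR4 and CTNNB1 lie higher in the siRNA samples than in the stable lines, and LEF1 and TCF7 stand at 0 in WT Dox.

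To ask whether EHMT1 depletion shifted these feedback genes, siEHMT1 was compared with siNTC by edgeR's quasi-likelihood test. Of the 10 genes, 9 passed the filter on low counts, and none of the 9 had an adjusted p under 0.05 or an unadjusted p under 0.05. Among all 14532 genes tested, 0.124% passed the adjusted threshold and 9.14% the unadjusted one. The median log2 fold change of the 9 was -0.02 and that of all genes was -0.0022. The CPM of the groups did not overlap for LEF1 and NKD1, 2 of the 9 tested members, where 39.7% of all genes tested showed no overlap. DESeq2 and limma-voom also called 0 of the 9, with no unadjusted p under 0.05. DESeq2 gave an adjusted p to CTNNB1 alone among these members (0.994), so it could not have called the others.

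CTNNB1, the transducer itself, was at 372 and 360.4 CPM in siNTC and at 350.0 and 361 CPM in siEHMT1. The groups overlapped, and the log2 fold change of -0.04 had an SE of 0.085 and a 95% interval from -0.22 to 0.13. TCF7L2, the TCF factor with the most reads here, was at 4.99 and 6.31 CPM in siNTC and at 5.10 and 5.74 CPM in siEHMT1, with the siEHMT1 values inside the siNTC range. LEF1, a factor that is itself a WNT target, was at 2.64 and 2.56 CPM in siNTC and at 1.98 and 1.91 CPM in siEHMT1. Both LEF1 values lay below the siNTC values, but its log2 fold change of -0.42 (SE 0.39) was not called, with an edgeR adjusted p of 0.784. TCF7 was at 7 and 4 counts in siNTC and at 3 and 3 counts in siEHMT1. These TCF7 counts were too few for the test. TCF7 also shares 210 exonic bases with SKP1 on the opposite strand, and whether strand was used in counting is not given in the sources used here.

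The receptor LGR4 and the 2 ligases had log2 fold changes close to 0 in the knockdown. LGR4 was at 17.5 and 20.9 CPM in siNTC and at 18.5 and 18.9 CPM in siEHMT1, a log2 fold change of -0.02 with a 95% interval from -0.35 to 0.32. RNF43 was at 20.9 and 24.3 CPM in siNTC and at 22.1 and 21.8 CPM in siEHMT1. Its 95% interval ran from -0.33 to 0.29 on the log2 scale. ZNRF3 was at 24.0 and 22.1 CPM in siNTC and at 22.2 and 23.9 CPM in siEHMT1, with an interval from -0.31 to 0.29. For all 3 genes the groups overlapped.

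Among the inhibitors, AXIN2 was at 3.96 and 3.75 CPM in siNTC and at 3.33 and 4.46 CPM in siEHMT1. The siEHMT1 values fell on either side of siNTC, and the log2 fold change of 0.02 had a 95% interval from -0.63 to 0.68. NKD1 was at 5.84 and 5.72 CPM in siNTC and at 6.87 and 6.29 CPM in siEHMT1, with no overlap and a log2 fold change of 0.18 (SE 0.24, edgeR adjusted p 0.877). APCDD1 was at 3.11 and 2.56 CPM in siNTC and at 2.92 and 1.43 CPM in siEHMT1. Its log2 fold change of -0.45 (SE 0.42) rested on siEHMT1 replicate 2, without which it was 0.0050, and without siEHMT1 replicate 1 it was -1.01, with an edgeR adjusted p of 0.354.

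**Figure D2:**
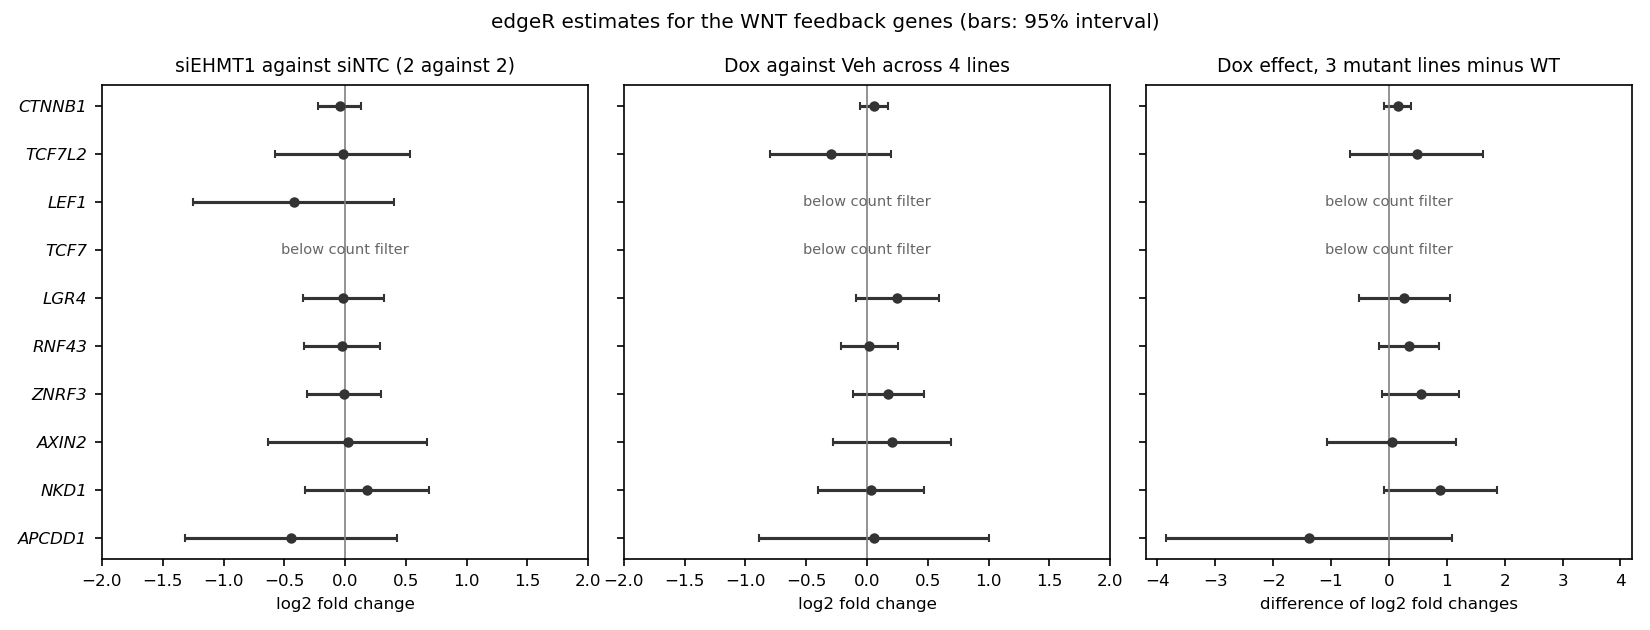
Estimates of edgeR with 95% intervals for each WNT feedback gene, as log2 fold changes of siEHMT1 against siNTC and of Dox against Veh across 4 lines, and as the difference between the Dox effects of the 3 mutant lines and WT. Every interval drawn includes 0, and TCF7 and, in the stable lines, LEF1 were below the count filter.

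The second question was whether the same genes differed with Dox, which induced EHMT1, in the stable lines. No line without the transgene was given doxycycline, so an effect of the drug and one of EHMT1 cannot be told apart. Across the 4 lines, with the line as a block, 8 of the 10 genes passed the filter (not LEF1 or TCF7), and none had an adjusted or unadjusted p under 0.05. Over all 14105 genes tested, 2.03% passed the adjusted and 14.2% the unadjusted threshold. The Dox and Veh libraries overlapped for all 8 members, where 4.59% of all genes tested showed no overlap. Log2 fold changes were above 0 for 7 members and below 0 for TCF7L2, with a median of 0.06 against 0.0049 over all genes. LGR4 had the highest value at 0.25 (SE 0.17, 95% interval -0.09 to 0.59) and TCF7L2 the lowest at -0.30 (SE 0.24, interval -0.79 to 0.20). AXIN2 followed LGR4 at 0.21 (interval -0.28 to 0.69) and ZNRF3 at 0.18 (interval -0.12 to 0.47). CTNNB1, with the narrowest interval, was at 0.06 (-0.05 to 0.18). DESeq2 and limma-voom likewise called 0 of the 8, with no unadjusted p under 0.05.

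These estimates pool 4 lines, which are given singly next. Within a line each condition is 1 sample, so there is no replicate check, and the ratio of Dox to Veh CPM is given with a 95% counting interval, which compares those libraries only. Over the 8 members, the median log2 ratio was -0.15 for WT and, in the mutants, 0.14 (K450R), 0.11 (K451R) and 0.17 (K450RK451R), while the median of all 14105 genes lay within 0.01 of 0 in each line. The ratio was above 1 for 3 of the 8 members in WT, 6 in K450R, 7 in K451R and 6 in K450RK451R. At a 2-fold difference, with counts under 3 taken as 3, the only member was APCDD1, higher in WT and lower in K450R, on 3 to 7 counts per library. Under this rule LEF1 in WT, with 8 and 0 counts, fell just short at 1.997-fold lower. Of all genes, 4.97% were higher and 3.77% lower by 2-fold in WT under the same rule. The shares were 4.7% and 4.19% for K450R, 3.85% and 4.52% for K451R and 5.86% and 5.94% for K450RK451R. Counting intervals lay above 1 for 10.5%, 11.7%, 10.9% and 15.2% of all genes in these 4 lines, in the same order, and below 1 for 10.1%, 11.8%, 12.8% and 16.1%.

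CTNNB1 was at 290.4, 293, 284 and 284 CPM in WT, K450R, K451R and K450RK451R Veh and at 279.6, 300.1, 308 and 313 CPM in the matching Dox libraries. Dox was therefore lower than Veh in WT and higher in the 3 mutant lines. The ratio was 0.963 in WT (interval 0.914 to 1.01), 1.02 in K450R (0.970 to 1.08), 1.09 in K451R (1.03 to 1.14) and 1.10 in K450RK451R (1.05 to 1.16). The intervals of CTNNB1 in K451R and K450RK451R lay above 1.

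TCF7L2 was at 4.63, 3.57, 3.40 and 6.17 CPM in WT, K450R, K451R and K450RK451R Veh and at 2.92, 3.19, 4.06 and 4.17 CPM with Dox. Only K451R was higher with Dox. The K450RK451R ratio of 0.676 (interval 0.460 to 0.991) lay below 1, and the WT ratio of 0.631 had an interval from 0.380 to 1.02. LEF1 had 8, 4, 14 and 9 counts in the 4 Veh conditions and 0, 7, 14 and 21 counts with Dox. WT Dox was thus the only LEF1 library without a read, and the counting interval of its ratio to WT Veh ran from 0 to 0.782. With 0 taken as the floor of 3 counts, LEF1 was 1.997-fold lower in WT Dox than in WT Veh, a value that depends on that floor. In K450RK451R the LEF1 ratio was 1.78, with an interval from 0.782 to 4.42. TCF7 had 6, 3, 1 and 6 counts in Veh and 0, 0, 1 and 4 counts with Dox. These TCF7 counts showed no detectable difference. The counting interval of the ratio ran from 0 to 1.13 in WT and from 0.106 to 2.15 in K450RK451R, and in the other 2 lines both libraries were at or under the floor.

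LGR4 was at 7.49, 8.12, 7.28 and 9.41 CPM in Veh and at 7.76, 8.30, 12.2 and 10.5 CPM with Dox, in the same order of lines. The highest ratio was 1.67 in K451R (interval 1.23 to 2.30, on 60 and 150 counts), while the intervals of the other 3 lines included 1. RNF43, the ligase that LGR4 restrains together with ZNRF3, was at 22.9, 20.1, 22.9 and 22.6 CPM in Veh and at 19.3, 27.3, 23.4 and 20.5 CPM with Dox. Its ratio was 1.36 in K450R (interval 1.12 to 1.67) and between 0.844 and 1.02 in the other lines. ZNRF3 was at 10.7, 10.3, 11.4 and 13.7 CPM in Veh and at 8.99, 13.0, 15.2 and 15.5 CPM with Dox. WT was lower with Dox and the 3 mutant lines higher, with ratios of 0.841, 1.26, 1.33 and 1.14. Of these ZNRF3 ratios, only the interval of K451R (1.03 to 1.73) lay above 1.

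AXIN2 was at 3.79, 2.83, 4.49 and 3.64 CPM in Veh and at 4.27, 3.41, 4.14 and 5.18 CPM with Dox. Its highest ratio was 1.42 in K450RK451R, with an interval from 0.934 to 2.19, so no change of the pathway's usual readout was detectable in any line at 23 to 67 counts per library. NKD1 was at 5.98, 4.43, 5.82 and 4.86 CPM in Veh and at 3.82, 5.21, 6.25 and 6.41 CPM with Dox. NKD1 was lower with Dox in WT, with a ratio of 0.639 (interval 0.412 to 0.975), while the mutants had ratios of 1.18, 1.07 and 1.32, with intervals that included 1. APCDD1 had 4, 7, 10 and 14 counts in Veh and 7, 3, 15 and 21 counts with Dox. Its ratio was 2.34 in WT (interval 0.594 to 10.9) and 0.371 in K450R (0.0619 to 1.62), neither of which excluded 1.

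**Figure D3:**
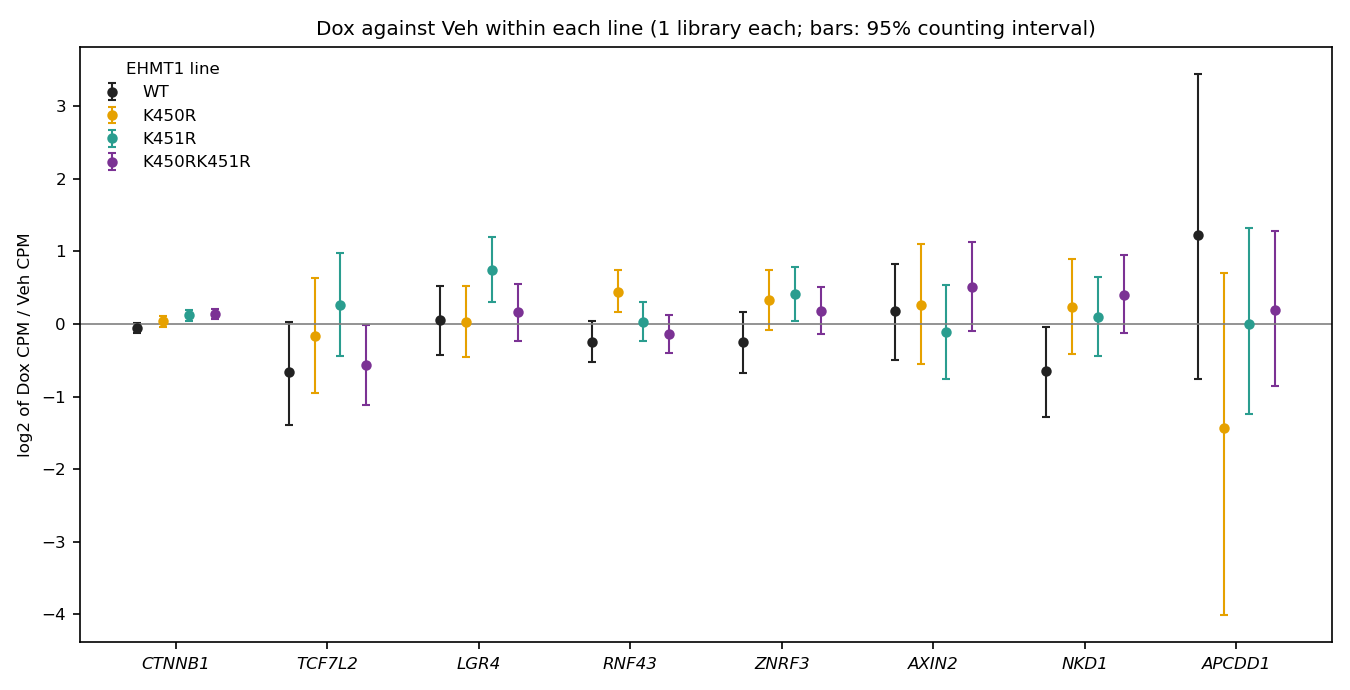
Log2 of Dox CPM over Veh CPM in each of the 4 EHMT1 lines for the 8 members that passed the count filter, 1 library per condition, with 95% counting intervals. CTNNB1, ZNRF3 and NKD1 lie below 0 in WT and above 0 in the 3 mutant lines, with most intervals including 0.

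CTNNB1, ZNRF3 and NKD1 were lower with Dox in WT and higher in all 3 mutant lines, 3 of the 8 members, and none showed the opposite pattern. Among all genes tested, 8.51% showed the first pattern and 8.0% the opposite one. The difference was then tested as the Dox effect of the 3 mutant lines minus that of WT, in a comparison added after the data were examined. WT is a lone line here, assumed to vary as the mutant lines do. The difference was 0.89 for NKD1 (SE 0.48, 95% interval -0.08 to 1.87), 0.55 for ZNRF3 (SE 0.33, -0.11 to 1.22) and 0.15 for CTNNB1 (SE 0.12, -0.08 to 0.39) on the log2 scale. None of the 8 members passed an adjusted or an unadjusted p under 0.05 in edgeR, and the lowest adjusted p among them was 0.74. Of all genes tested, 0.142% passed the adjusted and 6.99% the unadjusted threshold.

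The controls of both experiments are untreated or nontarget LNCaP derivatives, and 6 of the 10 genes were higher in both siNTC samples than in all 4 Veh libraries. LGR4 was at 17.5 and 20.9 CPM in siNTC and at 7.28 to 9.41 CPM in Veh, a ratio of means of 2.38. The ratio was 2.96 for APCDD1, 2.76 for LEF1, 2.00 for ZNRF3, 1.81 for TCF7 and 1.27 for CTNNB1. RNF43 (ratio 1.02), AXIN2 (1.04), NKD1 (1.10) and TCF7L2 (1.27) overlapped. Over the 14018 genes whose mean count reached 10, 39.6% were higher in both siNTC samples, and 34.6% with 1 scaling over all 12 libraries, a scaling chosen after the data were seen, under which 6 members were also higher. TCF7 did not reach that mean count. The tables were normalized separately, and transfection, line, medium and sequencing run cannot be told apart from this difference, which was not tested.

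For the members that reached 100 counts in each stable-line condition, the genes whose log2 CPM followed them most closely over the 8 conditions were sought among 9144 genes. RNF43 was followed by ARHGAP10 (Pearson r 0.973) and CHMP1B (0.934), and CTNNB1 by RNMTL1 (0.986) and PDCD6 (0.978). These values describe the best of many candidates over 8 libraries and carry no test.

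The rest of the WNT pathway was read from 120 listed genes, of which 103 had counts in any library. In siEHMT1 against siNTC, 78 were tested and none passed an adjusted p under 0.05 by edgeR, DESeq2 or limma-voom. DESeq2 gave no adjusted p to some of these genes, FZD5 among them, and could not have called those. Of the 78, 6 had an unadjusted p under 0.05 in edgeR, 2 in DESeq2 and 5 in limma-voom. Of all 14532 genes, 1328 (9.14%) did so in edgeR, 526 in DESeq2 and 1289 in limma-voom. The median log2 fold change was -0.03. FZD5, a Frizzled receptor, was at 38.7 and 43.8 CPM in siNTC and at 28.5 and 30.2 CPM in siEHMT1. Both FZD5 values lay below siNTC, with a log2 fold change of -0.48 (SE 0.12) and an edgeR adjusted p of 0.186. MYC, a long-known beta-catenin target, was at 400.1 and 373 CPM in siNTC and at 325 and 313 CPM in siEHMT1, a log2 fold change of -0.28 with an edgeR adjusted p of 0.28. Other genes with the largest differences in their lists were the ligand gene WNT10B (-0.38), the receptor gene FZD1 (0.30), the Dishevelled gene DVL2 (0.22), the deubiquitinase gene USP34 (-0.22), PYGO1 (-0.37), CREBBP (-0.23) and ENC1 (-0.34), none of which passed the adjusted threshold. The list medians were -0.16 for ligands, -0.05 for receptors, 0.07 for the secreted inhibitor list (2 genes tested), 0.0070 for cytoplasmic transducers, -0.04 for nuclear factors and 0.02 for the other reported targets. The 2 genes tested on the secreted inhibitor list were KREMEN1 and KREMEN2, which encode membrane receptors, so no inhibitor that is itself secreted was tested in the knockdown.

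In Dox against Veh across the 4 lines, 81 pathway genes were tested and 4 passed an adjusted p under 0.05, against 2.03% of all genes. All 4 belonged to the list of reported targets outside the feedback genes, in which 19 were tested, 1 rose and 3 fell. Of the 81 pathway genes, 17 had an unadjusted p under 0.05 in edgeR, against 14.2% of all genes tested. MYC rose, from 106, 114, 134 and 142 CPM in WT, K450R, K451R and K450RK451R Veh to 134, 143, 206 and 208 CPM with Dox. MYC was thus higher with Dox in each line, although its groups overlapped, and the log2 fold change was 0.46 (SE 0.061, edgeR adjusted p 3.2e-05). VEGFA, which encodes an angiogenic growth factor and is also induced by hypoxia, fell from 1756, 1555, 1328 and 1190.3 CPM to 1453, 1101, 900.5 and 909.5 CPM. Its log2 fold change was -0.43 (SE 0.056, edgeR adjusted p 3.2e-05), and it was lower in all 4 lines, with overlapping groups.

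JUN, which encodes a subunit of the AP-1 factor, was at 248, 251, 209 and 192 CPM in Veh and at 236, 205, 151 and 162 CPM with Dox. JUN was lower in all 4 lines, with a log2 fold change of -0.27 (edgeR adjusted p 0.0157), but the adjusted p was 0.133 without K450R and 0.242 without K451R. ID2, an inhibitor of basic helix-loop-helix factors, was at 27.5, 32.1, 28.3 and 25.4 CPM in Veh and at 34.3, 18.5, 16.2 and 12.8 CPM with Dox. ID2 fell by 0.54 on the log2 scale across lines (edgeR adjusted p 0.046), although it was higher with Dox in WT. Its adjusted p was 0.506 in DESeq2, 0.0864 in limma-voom and 0.0525 after upper-quartile scaling, and between 0.196 and 0.295 without any 1 of the 3 mutant lines. Without the line block, none of the 4 genes passed the threshold. Of the 8 LNCaP markers, 4 rose with Dox and 0 fell at an edgeR adjusted p under 0.05, a threshold that 2.03% of all genes passed. FOXA1 and TMPRSS2 were among the 4 (log2 fold changes of 0.36 and 0.22, edgeR adjusted p 5.3e-04 and 0.0257). The summed level of the 8 LNCaP markers, which mostly follows the most abundant of them, was 10975 to 11706 CPM in Veh and 11577 to 12163 CPM with Dox. Their part in these changes was not tested.

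No gene of the other pathway lists was called with Dox. The 9 ligand and secretion genes tested had a median log2 fold change of 0.03, the 13 receptors 0.08, the 3 genes of the secreted inhibitor list -0.03, the 22 cytoplasmic transducers -0.03 and the 17 nuclear factors 0.01. On the secreted inhibitor list, the genes tested were NOTUM, whose product is secreted, and the membrane receptor genes KREMEN1 and KREMEN2. TLE1, a Groucho corepressor that binds TCF factors, had the largest difference among well-counted nuclear factors at 0.37 (SE 0.11, edgeR adjusted p 0.0775). The destruction complex genes AMER1 and APC stood at 0.32 and 0.25, with edgeR adjusted p-values of 0.364 and 0.276. The rest named by the same rule were WLS (0.11), WNT7B (-0.10), FZD4 (0.20), FZD5 (0.10), KREMEN2 (0.04), KREMEN1 (-0.03) and CTNNBL1 (-0.16), and WNT7B (-0.09), KREMEN1 (0.15) and KREMEN2 (-0.0039) in the knockdown.

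**Figure D4:**
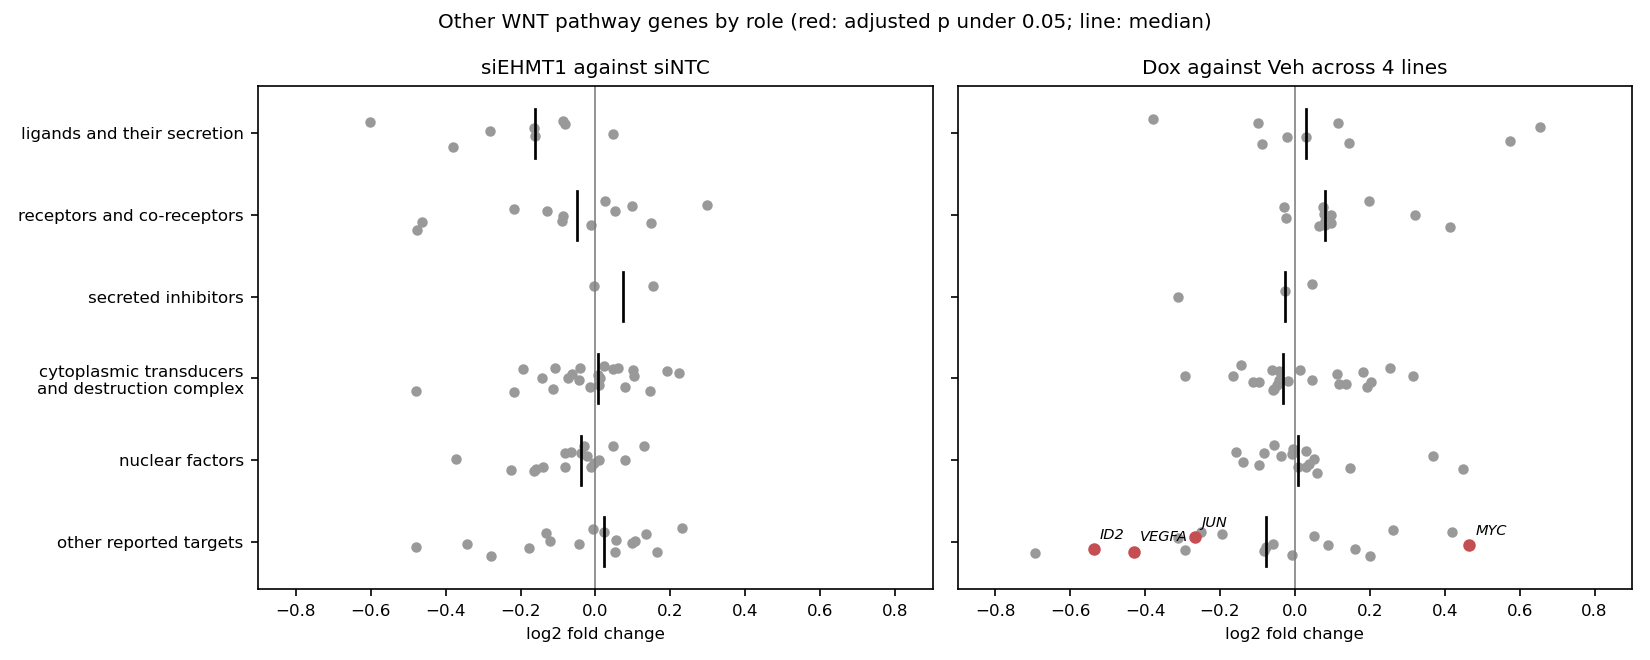
Log2 fold changes of the other WNT pathway genes by role, with siEHMT1 against siNTC on the left and Dox against Veh across 4 lines on the right. Each point is a gene, vertical lines are list medians, and red points passed an adjusted p under 0.05, which were MYC, VEGFA, JUN and ID2 with Dox.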

How the data were processed

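The authors deposited 2 tables of raw read counts per Ensembl gene, without normalization. Libraries were prepared from total RNA with a stranded Illumina kit and mapped to hg19. The submitters' processing notes list FastQC 0.11.9, STAR 2.7.2 and featureCounts 1.6.4, and the annotation release and strand setting are not given in the sources used here, so overlapping genes could share reads. All 20 columns were matched to samples by name.

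The members and the pathway lists were chosen with earlier results of these data known. Columns of 1 condition were compared by a chi-square test restricted to genes whose summed count reached 20. The value per degree of freedom was 0.995 to 1.02 in the stable lines, whose columns were summed, and 13.4 and 61.6 in siEHMT1 and siNTC, or 6.17 and 6.58 without the 2 pseudogenes that resemble ribosomal RNA. Nothing states that samples came from separate cultures, so p-values of the knockdown measure the spread between these samples, which may be technical. For Dox against Veh, p-values measure how the Dox effect varied between the 4 lines, which carry different transgenes. Counts were scaled by TMM within each table, filtered by edgeR's default, and tested in R 4.3.3 with the quasi-likelihood method of edgeR 4.0.16 and Benjamini-Hochberg adjustment. Dox against Veh was fitted over 8 libraries with the line as a block. Alternatives used limma 3.58.1 (limma-voom), DESeq2 1.42.0, upper-quartile scaling, no filter, the legacy quasi-likelihood method, another block and each sample or line left out. In simulated counts, 100% of 200 genes changed by 2 on the log2 scale were recovered in each comparison. Unchanged genes called numbered 6 (siRNA, 14300 genes) and 19 (stable lines, 13954 genes). The simulation used a fixed spread shared by all genes, and every changed gene had a mean count of at least 20. It does not show how often smaller changes, or changes in members with few counts, would be found.

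Within a line, ratios of CPM carry 95% exact conditional binomial intervals, and levels carry 95% exact Poisson intervals. Intervals and the floor of 3 counts cover counting error only. All members are named, and some of the LNCaP markers are not reported singly here. Other pathway genes are named at an adjusted p under 0.05, or otherwise as the 2 largest log2 fold changes of each list, where the mean count reached 100. Positions come from GENCODE release 44 on GRCh37, the build of hg19.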

Additional observations from a re-analysis of the deposited data

Results flagged for a closer look

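The RNF43 level of K450R Veh, 20.1 CPM, stood apart from the other 3 Veh libraries (22.6 to 22.9 CPM) by Dixon's criterion for 4 values. K450R Veh was the 1 library singled out in 20 such groups of 4 examined, and chance singles out about 1 in 20. That library is the denominator of the K450R ratio of RNF43 (1.36), whose numerator, K450R Dox at 27.3 CPM, was the highest of the 10 conditions. NKD1, ZNRF3 and CTNNB1 were lower with Dox in WT and higher in all 3 mutant lines, with differences of 0.89, 0.55 and 0.15 on the log2 scale. None of these differences passed the edgeR test (adjusted p of 0.74, 0.786 and 0.844).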

How the results depend on the processing

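No member passed an adjusted p under 0.05 in either comparison under any alternative run, and the lowest adjusted p of a member was 0.354 in the knockdown and 0.325 with Dox. In the knockdown, DESeq2 gave an adjusted p only to CTNNB1 among the members. All 10 members were in the fits without a filter. The number of detectable members at 10 or more counts stayed within 1.5 times that above 3 counts in each condition, as did the count of members at 2-fold without TMM factors. Depth limits the low genes most: LEF1, TCF7 and APCDD1 had at most 33 counts in any library, so only large differences could be detected in them.

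Over all genes, the 18 calls of the knockdown became 109 without the filter on low counts and between 42 and 237 with 1 sample left out. In that case the lone sample of its group was assumed to vary like the others. The 286 calls with Dox became 140 in DESeq2, 4 without the line block and between 97 and 472 with 1 line left out. The 4 pathway genes called with Dox became 0 without the line block and between 2 and 5 with 1 line left out. For these counts the cause was not tested. Without the 2 pseudogenes that resemble ribosomal RNA, an alternative chosen after the data were seen, the knockdown gave 19 calls and no member. JUN and ID2 were no longer called in the settings given with their values, and TLE1 was called without the filter on low counts (0.37, adjusted p 0.0490).

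With the replicate number as a block in the knockdown, all genes gave 99 calls and the pathway 1, FZD5 (-0.49, adjusted p 0.0481), and no member was called. After the group means were subtracted, samples with the same number correlated at -0.0052, so the numbers were not taken as pairing the samples, and no other call among the named genes changed. The block also turned AXIN2 to -0.015 and KREMEN2 to 0.014.

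Values near 0 changed sign in the knockdown, none of them called. With limma-voom TCF7L2 became 0.0068 and LGR4 0.0046. With upper-quartile scaling TCF7L2 became 0.0048, ZNRF3 0.015, LGR4 0.0071 and KREMEN2 0.019, and with DESeq2 KREMEN2 became 0.0071. With 1 sample left out, AXIN2 ranged from -0.22 to 0.20, TCF7L2 from -0.21 to 0.12, RNF43 from -0.14 to 0.068, ZNRF3 from -0.065 to 0.063, LGR4 from -0.16 to 0.093, APCDD1 from -1.01 to 0.0050, WNT7B from -0.21 to 0.10 and KREMEN2 from -0.10 to 0.14. With 1 line left out, the Dox value of NKD1 ranged from -0.10 to 0.25, RNF43 from -0.12 to 0.10, APCDD1 from -0.19 to 0.35, KREMEN2 from -0.031 to 0.12 and KREMEN1 from -0.14 to 0.053.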
